A study of Mus musculus with 2 samples.

Results

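The chloride cotransporter genes Slc12a2 and Slc12a5 were examined, 2 of the 32285 genes counted. They were taken by their gene symbols, a rule that uses no measured value, with earlier results of these data known. Slide-tags attaches spatial barcodes to nuclei in a frozen tissue section before droplet-based single-nucleus RNA sequencing. Its RNA counts were analysed here in 2 mouse samples, a coronal section of the adult hippocampus from a male C57BL/6J mouse and a sagittal brain section from a whole C57BL/6J embryo at embryonic day 14 (E14), with no treatment or engineered allele described for either. Each sample was 1 library, so no difference has a replicate check and no test was made. Age, brain region, animal, library and the version of the counting software Cell Ranger cannot be told apart.

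Slc12a2 encodes NKCC1, a membrane protein that carries sodium, potassium and chloride into cells. Slc12a5 encodes KCC2, a neuronal cotransporter that carries potassium and chloride out. Their balance sets neuronal chloride and so the direction of the current through GABA-A receptors, which are chloride channels, and KCC2 is known to increase as neurons mature. NKCC1 is also known from secretory epithelia and glia.

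In GRCm38 (mm10) with the GENCODE vM21 annotation, Slc12a2 (ENSMUSG00000024597) lies on chromosome 18 at 57878678 to 57946821 on the plus strand, with 2 annotated transcripts over 68.1 kb.

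Slc12a5 (ENSMUSG00000017740) lies on chromosome 2 at 164960802 to 164999731, also on the plus strand, with 10 transcripts over 38.9 kb. Neither gene overlaps another annotated gene. Because intronic reads were counted, which of the 2 genes was higher was read only per kb of span. Where CPM values of both genes are printed or drawn side by side, they are not read in that way. The raw ratio of their UMIs was compared only between sets of nuclei.

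Slc12a5 has 2 RefSeq promoter windows, which belong to its KCC2a and KCC2b starts. They are shown because the deposited row sums the transcripts of both starts, so the UMIs cannot be divided between them. Each is printed from RefSeq on GRCm38.p6, 5′ to 3′ on the plus strand, up to the base before the first annotated transcript start in it. Capitals mark CACGTG, an E-box that reads the same on both strands and that the factor USF1 is known to bind. The first covers chr2:164960596-164960801 and the second chr2:164967738-164967982.
KCC2a: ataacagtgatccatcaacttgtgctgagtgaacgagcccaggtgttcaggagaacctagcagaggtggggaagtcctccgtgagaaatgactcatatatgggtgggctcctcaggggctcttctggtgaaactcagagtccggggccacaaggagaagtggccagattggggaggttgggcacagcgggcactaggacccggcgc
KCC2b: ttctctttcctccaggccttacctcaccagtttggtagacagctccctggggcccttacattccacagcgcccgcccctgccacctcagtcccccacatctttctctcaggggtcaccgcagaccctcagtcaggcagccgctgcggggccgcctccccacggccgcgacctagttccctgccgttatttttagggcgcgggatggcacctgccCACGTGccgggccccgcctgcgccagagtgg
The E-box was present once in the KCC2b window, starting 31 bases before the transcript start, and was not among the 206 bases of the KCC2a window. It occurred in 5.85% of 32851 RefSeq promoter windows cut to 245 bases. Usf1 itself was counted at 10.7 UMIs per 1000000 in adult neurons and 18.9 in E14 neurons.

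UMIs mark single captured molecules, and CPM below is the UMIs of a gene per 1000000 UMIs summed over a set of nuclei. After filtering, 1609 adult and 9036 E14 nuclei held 15346746 and 58923882 UMIs, with medians of 6607 and 4204 per nucleus, and the libraries shared 1 barcode. Classes were named X-like from lists of 8 markers, without SLC12 genes among the genes that built the clusters, and 17.7% of adult and 16.2% of E14 nuclei stayed unnamed. Further E14 clusters, with 3956 nuclei in all, were neuronal by general neuron markers but matched no regional list. Names were rebuilt here and are not those of the study. The adult section held thalamic-like and cortical-like neurons beside those of the hippocampus. All intervals are exact, at 95%, and cover counting error only.

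Across each whole library, Slc12a2 was at 81.1 CPM in the adult and 85.0 CPM in the embryo. Slc12a5 was at 182 CPM in the adult and 79.7 CPM in the embryo. These totals hide opposite distributions over cell classes.

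In the adult section, Slc12a2 was highest in oligodendrocyte-like nuclei, the myelinating cells. It reached 779.8 CPM there (645 UMIs, 237 nuclei, interval 721 to 842). Endothelial-like nuclei followed at 144 CPM (110 to 186), then oligodendrocyte precursor-like nuclei at 119 CPM (72.7 to 184). The oligodendrocyte-like level was 5.40 times the endothelial-like level (4.14 to 7.16) and 6.55 times that of the precursors (4.21 to 10.8). Of 9552 genes with enough UMIs, 3.13% were at least 2-fold higher in oligodendrocyte-like nuclei than in any other adult class, and Slc12a2 was among them.

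The Slc12a2 signal was spread over most oligodendrocyte-like nuclei. At least 1 UMI was found in 84.8% of them, at least 3 UMIs in 46.8%, and the highest nucleus held 17. The level was not highest in the deepest nuclei: the 60 shallowest nuclei stood at 937 CPM (753 to 1153) and the 59 deepest at 684 CPM (603 to 773). The endothelial-like cluster also held the mural markers Rgs5 and Vtn among its leading genes, so its Slc12a2 cannot be divided between endothelial and mural nuclei.

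Below these classes the levels fell in small steps. Microglia-like nuclei stood at 95.5 CPM on 9 UMIs (43.7 to 181), astrocyte-like nuclei at 65.5 CPM (49.9 to 84.5) and inhibitory-like neurons at 65.1 CPM (45.8 to 89.7). From endothelial-like down to dentate granule-like nuclei, each class differed from the next by no more than counting error. Dentate granule-like nuclei at 38.3 CPM were 1.69 times (1.31 to 2.22) CA1 pyramidal-like nuclei at 22.6 CPM, and thalamic excitatory-like nuclei were at 22.4 CPM.

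Slc12a5 had the reverse order. Thalamic excitatory-like nuclei stood at 228 CPM (204 to 254), dentate granule-like nuclei at 211 CPM (199 to 223) and CA1 pyramidal-like nuclei at 209 CPM (194 to 224). Neighbours among these 3 classes did not differ beyond counting error, while CA1 was 1.33 times (1.05 to 1.72) the cortical excitatory-like level of 156 CPM. CA3 pyramidal-like nuclei were at 155 CPM and inhibitory-like neurons at 139 CPM (110 to 173). A thalamic cluster of 59 nuclei was shallow and poor in the nuclear RNA Malat1, and without it the thalamic level was 217 CPM.

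**Figure D1:**
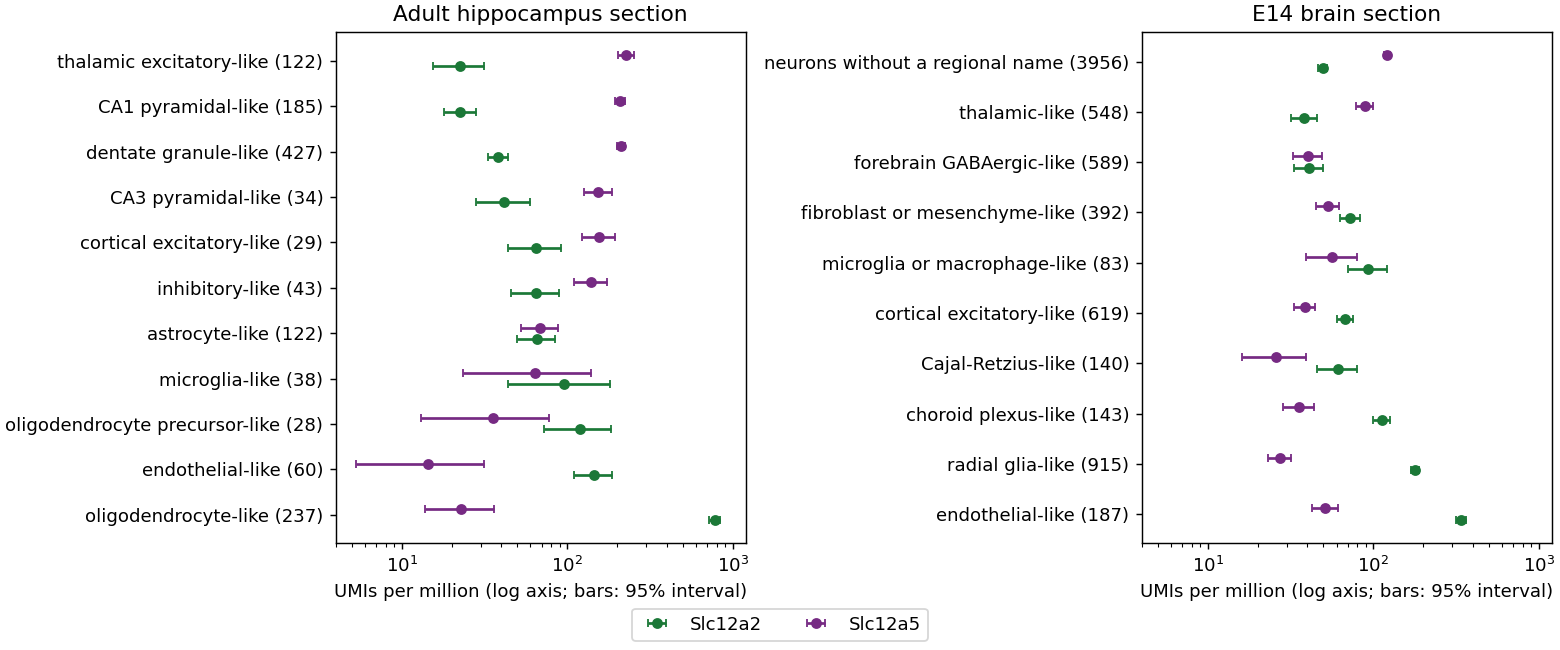
CPM of Slc12a2 (green) and Slc12a5 (purple) by cell class on a log axis, for the adult section (left) and the E14 section (right), with the number of nuclei in parentheses and bars for exact 95% counting intervals. Slc12a2 stands apart in adult oligodendrocyte-like nuclei at 779.8 CPM and in E14 endothelial-like nuclei at 341 CPM, where Slc12a5 is at 23.0 and 51.3 CPM.

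Adult non-neuronal classes held some Slc12a5. It was at 68.8 CPM in astrocyte-like, 63.7 in microglia-like, 35.7 in oligodendrocyte precursor-like, 23.0 in oligodendrocyte-like and 14.4 CPM in endothelial-like nuclei. The 2 astrocyte-like clusters differed, at 77.1 CPM where 8 general neuron markers summed to 2149.6 CPM, and at 9.16 CPM on 1 UMI where they summed to 311 CPM. Over alternative filters and clusterings the astrocyte-like level ran from 32.0 to 108 CPM. The cluster with more neuronal marker UMIs thus also had more Slc12a5. Per 1000 UMIs of those markers, Slc12a5 had 35.7 UMIs in astrocyte-like (27.4 to 45.8) and 77.9 in oligodendrocyte-like nuclei (46.9 to 122). It had 20.4 in all adult neurons (19.6 to 21.2) and 55.5 in the shallow adult nuclei of unnamed clusters (46.8 to 65.3). The part of free neuronal RNA in these levels was not tested.

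In the E14 section, Slc12a2 was highest in endothelial-like nuclei at 341 CPM (845 UMIs, 319 to 365). The 47 shallowest of these nuclei stood at 657 CPM (501 to 846) and the 46 deepest at 329 CPM (302 to 359). Radial glia-like nuclei, the neural stem and progenitor cells of the embryo, stood at 179 CPM (1089 UMIs, 169 to 190). Choroid plexus-like nuclei, which secrete cerebrospinal fluid, were at 112 CPM (99.2 to 127). The endothelial-like level was 1.90 times the radial glia-like level (1.74 to 2.08). In the main values Slc12a2 thus fell short of the 2-fold mark, which 1.75% of 11864 genes passed in endothelial-like nuclei against every other E14 class. With likely doublets removed the endothelial-like and radial glia-like levels were 379 and 180 CPM, so the call depends on the processing.

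The radial glia-like class joined 2 clusters with different Slc12a2 levels. The first, 468 nuclei with Pax6 at 386 and Emx1 at 75.1 CPM, held Slc12a2 at 89.6 CPM (79.4 to 101). The second, 447 nuclei with Pax6 at 49.4 and Nkx2-1 at 60.2 CPM, held it at 274 CPM (256 to 294), 3.06 times as much (2.67 to 3.52). Pax6 and Emx1 mark dorsal forebrain progenitors and Nkx2-1 ventral ones, and these genes were chosen after their values were seen. The proliferation gene Mki67 also differed, at 220 against 388 CPM, and its part in the difference was not tested. With coarser clusters (resolution 0.4) the named class lay at 88.7 CPM. An unnamed cluster of 498 nuclei shared leading genes with the first cluster but was not in the class. It held Slc12a2 at 78.8 CPM (73.3 to 84.7). The endothelial-like level was 1.24 times that of the second cluster (1.13 to 1.37).

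Among E14 neurons the levels of Slc12a2 were all below that of radial glia-like nuclei. Cortical excitatory-like neurons stood at 67.5 CPM, Cajal-Retzius-like neurons at 61.0, forebrain GABAergic-like neurons at 40.8 and thalamic-like neurons at 38.3 CPM. Cortical exceeded thalamic 1.76-fold (1.43 to 2.18), and Cajal-Retzius-like exceeded forebrain GABAergic-like neurons 1.49-fold (1.05 to 2.11). From choroid plexus-like down to Cajal-Retzius-like nuclei, neighbours in the E14 order did not differ beyond counting error. Neurons without a regional name were at 49.4 CPM.

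Slc12a5 varied more among E14 neurons than Slc12a2. Neurons without a regional name stood at 121 CPM (116 to 125) and thalamic-like neurons at 88.6 CPM (78.8 to 99.4). Forebrain GABAergic-like neurons were at 40.4 CPM (32.9 to 49.0), cortical excitatory-like neurons at 38.5 CPM (33.2 to 44.3) and Cajal-Retzius-like neurons at 25.8 CPM (16.2 to 39.0). Thalamic exceeded cortical 2.30-fold (1.91 to 2.78). The highest cluster, 125 GABAergic nuclei led by Ddc and Penk, was at 157 CPM, 6.09 times the Cajal-Retzius-like level (3.87 to 10.0).

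E14 non-neuronal classes held Slc12a5 at levels between 27.2 CPM in radial glia-like and 56.7 CPM in microglia or macrophage-like nuclei. That range includes the cortical excitatory-like and forebrain GABAergic-like levels. The Cajal-Retzius-like level of 25.8 CPM (16.2 to 39.0) lay just below it. Of the named E14 neuron classes only thalamic-like neurons lay above it. Per 1000 UMIs of 8 general neuron markers, Slc12a5 had 14.7 UMIs in radial glia-like (12.5 to 17.1), 23.9 in endothelial-like (19.9 to 28.4) and 18.1 in all neurons (17.5 to 18.8). On this scale cortical excitatory-like neurons had 8.33 (7.19 to 9.60) and Cajal-Retzius-like neurons 5.78 (3.62 to 8.75). The radial glia-like value lay below that of all neurons and the endothelial-like value above it. A shallow unnamed cluster of 966 nuclei had 35.0 (30.0 to 40.7). The part of free neuronal RNA was not tested.

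Shares of nuclei were set side by side after each nucleus was thinned to 1000 UMIs. Slc12a5 was then found in 22.3% of adult neurons (19.5 to 25.4) and 1.76% of oligodendrocyte-like nuclei (0.482 to 4.45), a class that should lack it, with median depths of 13022 and 3052 UMIs before thinning. Unthinned, the shares were 85.2% and 4.64%. In E14 neurons it was found in 9.18% (8.44 to 9.97) against 2.54% of radial glia-like nuclei (1.599 to 3.82), with median depths of 4496 and 3874 UMIs, and unthinned in 34.9% and 13.3%. Thinning left out 30 adult neurons, 10 oligodendrocyte-like, 201 E14 neuron and 49 radial glia-like nuclei.

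Slc12a2 showed the opposite shares. After thinning it was found in 54.2% of oligodendrocyte-like nuclei (47.5 to 60.8) and 4.32% of adult neurons (3.03 to 5.96), and unthinned in 84.8% and 33.1%. In the embryo it was found in 13.5% of radial glia-like nuclei (11.3 to 16.0) and 4.74% of neurons (4.20 to 5.33), and unthinned in 41.97% and 21.5%. No background share was taken for Slc12a2, and the part of free RNA from classes rich in it in the neuronal shares was not tested.

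The ratio of Slc12a5 to Slc12a2 UMIs within a class needs no scaling by total UMIs. It is not per length, so its change between classes is read rather than its distance from 1. It was 5.92 in adult neurons (5.35 to 6.58) and 1.92 in E14 neurons (1.82 to 2.04), a 3.08-fold difference (2.73 to 3.47). Per kb of gene span the ratios were 10.4 and 3.37, and they were 0.998 in E14 cortical excitatory-like and 0.741 in Cajal-Retzius-like neurons.

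In glia the ratio was far lower at both ages. It was 0.120 in adult oligodendrocyte, precursor and astrocyte-like nuclei together (0.0951 to 0.150) and 0.152 in E14 radial glia-like nuclei (0.128 to 0.179). Within the adult glia it ran from 0.0295 in oligodendrocyte-like (0.0176 to 0.0464) to 1.05 in astrocyte-like nuclei (0.724 to 1.53). Over alternative filters and clusterings the pooled adult value ran from 0.0668 to 0.221. Adult neurons thus exceeded adult glia 49.2-fold (38.4 to 63.6) and E14 neurons exceeded radial glia 12.7-fold (10.7 to 15.2). The unnamed E14 cluster of 498 nuclei that shared leading genes with a radial glia-like cluster was in neither group. Its ratio was 0.849 (0.763 to 0.945).

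Among adult neurons the ratio was highest in thalamic excitatory-like nuclei at 10.2 (7.11 to 15.0) and CA1 pyramidal-like nuclei at 9.24 (7.33 to 11.8). It was 5.51 in dentate granule-like (4.77 to 6.39), 3.70 in CA3 pyramidal-like (2.45 to 5.74), 2.42 in cortical excitatory-like (1.57 to 3.805) and 2.14 in inhibitory-like neurons (1.43 to 3.25). In the embryo it was 2.31 in thalamic-like (1.87 to 2.87), 0.990 in forebrain GABAergic-like (0.746 to 1.32), 0.570 in cortical excitatory-like (0.475 to 0.683) and 0.423 in Cajal-Retzius-like neurons (0.245 to 0.709). The last pair fell in the range of the E14 non-neuronal classes.

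**Figure D2:**
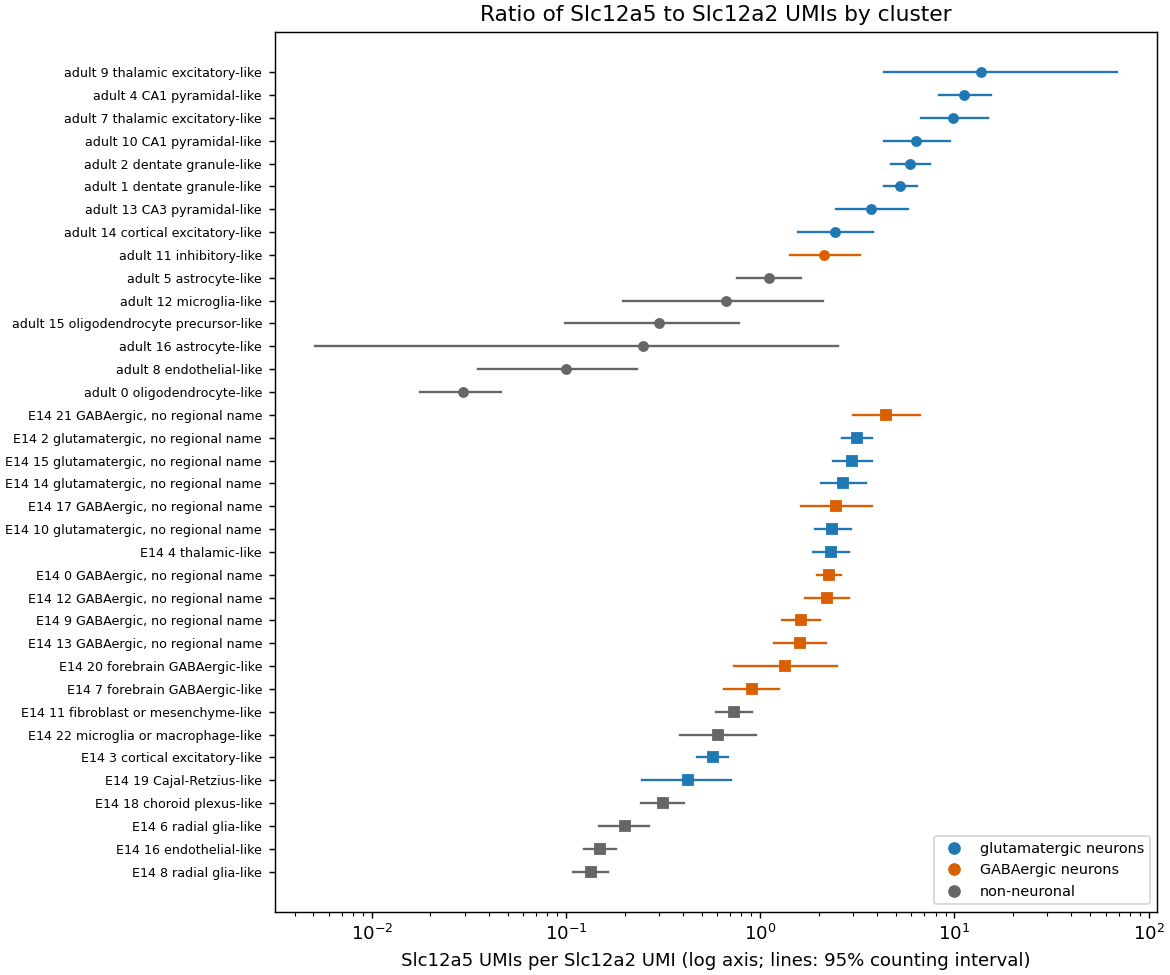
Slc12a5 UMIs per Slc12a2 UMI in each named or neuronal cluster on a log axis, with lines for exact 95% counting intervals, circles for adult and squares for E14 clusters, and colours for glutamatergic, GABAergic and non-neuronal nuclei. The ratio is not per length, so its position against 1 is not read. The values of all 9 adult neuronal clusters lie above those of every adult non-neuronal cluster, with some intervals overlapping, while E14 cortical excitatory-like and Cajal-Retzius-like neurons, at 0.570 and 0.423, lie among the E14 non-neuronal clusters.

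The contrast of adult with E14 neurons compares different mixtures of regions. Over all neurons Slc12a5 was at 204 CPM in the adult (196 to 212) and 97.4 CPM in the embryo (94.2 to 101), a ratio of 2.09 (1.98 to 2.20). Among 18958 genes with at least 20 UMIs, 17.4% were at least 2-fold higher in adult neurons, so a change of this size was common, and 16.6% of genes had a higher ratio than Slc12a5. Slc12a2 was at 34.4 CPM in the adult (31.2 to 37.8) and 50.6 CPM in the embryo (48.3 to 53.1), a ratio of 0.679 (0.610 to 0.755). It did not reach the 2-fold mark, which 23.6% of genes passed downwards.

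Classes with the same regional name at both ages gave larger differences for Slc12a5. The cortical excitatory-like level was 4.06 times higher in the adult (3.07 to 5.33), and the thalamic level 2.57 times (2.19 to 3.02). The adult cortical class was a single cluster of 29 nuclei with 75 Slc12a5 UMIs. Its name rests on 5 of 8 markers, with 0 among its 10 leading genes. Marker lists also differed between the ages, so a shared name need not mean a matched region. For Slc12a2 the cortical ratio was 0.958 (0.640 to 1.39), which includes no difference, and the thalamic ratio 0.585 (0.386 to 0.864). In GABAergic neurons, with 43 adult nuclei, the ratios were 1.37 for Slc12a5 (1.08 to 1.72) and 1.28 for Slc12a2 (0.896 to 1.79). The Slc12a5 to Slc12a2 ratio therefore differed between ages by 3.36-fold in glutamatergic neurons (2.94 to 3.85) and by 1.07-fold in GABAergic neurons (0.705 to 1.64). The E14 GABAergic pool of 2972 nuclei came mostly from clusters without a regional name. Its 589 forebrain GABAergic-like nuclei held Slc12a5 at 40.4 CPM (32.9 to 49.0), with a ratio of 0.990 (0.746 to 1.32). Adult inhibitory-like neurons held it at 139 CPM (110 to 173), with a ratio of 2.14 (1.43 to 3.25). The age difference against that E14 class alone was not computed.

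In endothelial-like nuclei both genes were lower in the adult. Their Slc12a2 was at 144 CPM in the adult and 341 CPM in the embryo, a ratio of 0.423 (0.320 to 0.550). Their Slc12a5 was at 14.4 CPM on 6 UMIs and 51.3 CPM, a ratio of 0.282 (0.101 to 0.630), and its difference from the neuronal ratio was not tested. The mural markers Rgs5 and Vtn were among the leading genes of the adult cluster and not of the E14 one, so age and the mixture of vessel nuclei cannot be told apart.

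**Figure D3:**
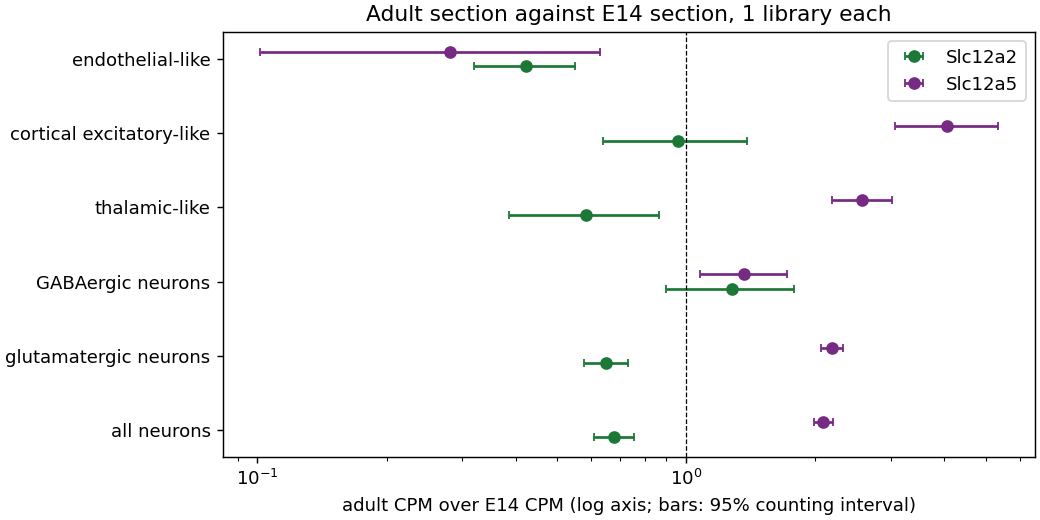
Adult over E14 CPM on a log axis for Slc12a2 (green) and Slc12a5 (purple) in groups of neurons and in endothelial-like nuclei, with bars for exact 95% counting intervals and 1 library at each age. Slc12a5 lies above 1 in all 5 groups of neurons, from 1.37 in GABAergic to 4.06 in cortical excitatory-like neurons, while the Slc12a2 intervals of cortical and GABAergic neurons include 1.

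Within E14 neurons, nuclei were ordered by a score of 12 late against 12 early neuronal genes and divided into 4 bins of 1463 nuclei. Slc12a5 was at 77.3 CPM in the earliest bin (70.8 to 84.2), then 98.0, 108 and 101 CPM (94.6 to 108) in the latest. Slc12a2 was at 55.0, 53.2, 46.9 and 48.8 CPM. The latest bin was 1.31 times the earliest for Slc12a5 (1.17 to 1.46) and 0.888 times for Slc12a2 (0.770 to 1.02). Median depth also differed, at 3231 UMIs in the earliest and 4728 in the latest bin.

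At equal depth the difference in Slc12a5 was smaller, on far fewer UMIs. With nuclei thinned to 1000 UMIs before scoring, the bins stood at 96.2, 98.4, 105 and 101 CPM, a ratio of 1.04, and their intervals overlapped throughout. The earliest and latest bins then held 136 and 142 Slc12a5 UMIs, beside 523 and 859 without thinning. Such counts are too few to show whether the difference was absent. A score from so few UMIs also orders nuclei less well, and the parts of depth and of a noisier score were not tested. Within thalamic-like neurons the latest bin was lower, at 0.589 times the earliest (0.399 to 0.865), while the cortical excitatory-like ratio was 1.69 (0.996 to 2.99).

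**Figure D4:**
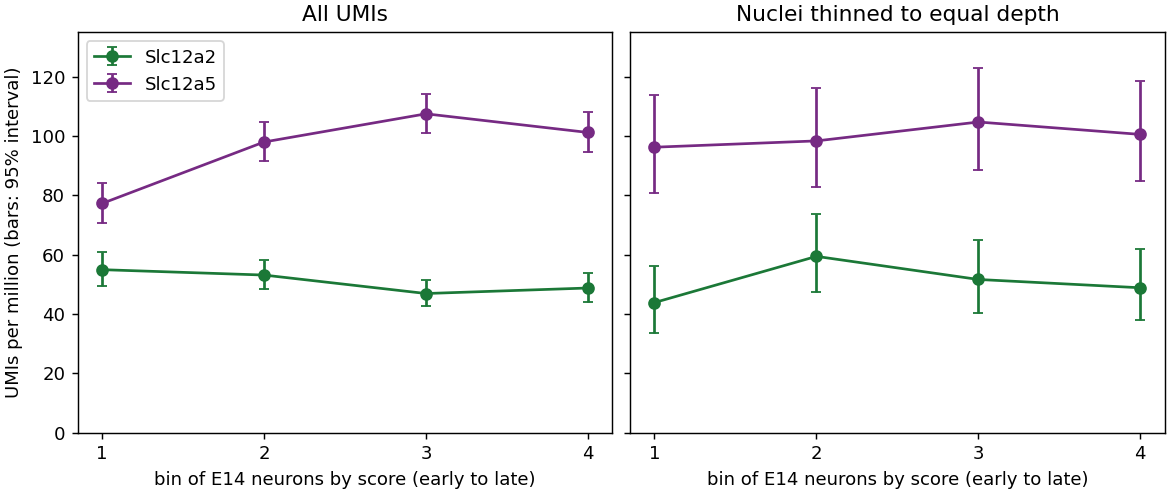
CPM of Slc12a2 (green) and Slc12a5 (purple) in 4 bins of E14 neurons ordered from early to late by the maturation score, with all UMIs (left) and after thinning to 1000 UMIs (right), and bars for exact 95% counting intervals. Slc12a5 goes from 77.3 to 101 CPM with all UMIs and from 96.2 to 101 CPM after thinning.

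Other genes of chloride handling were read from a list of 48, of which 47 had at least 20 UMIs in neurons. In adult neurons 13 were at least 2-fold higher and 9 at least 2-fold lower than in E14 neurons, beside 17.4% and 23.6% of all genes. At least 4-fold, 7 were higher and 2 lower, beside 8.08% and 10.5% of all genes. The median log2 ratio was 0.06 over the list and -0.15 over all genes.

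Of the other SLC12 cotransporters, 0 of 6 were higher and 2 lower. Slc12a7, which encodes KCC4, was at 0.320 CPM on 4 UMIs in adult and 5.91 CPM in E14 neurons, 18.5 times higher in the embryo (7.11 to 68.5). The kinase Wnk3, of the family that acts on both cotransporters, was at 38.5 and 108 CPM, 2.81 times higher in the embryo (2.56 to 3.10). Stk39, which encodes the kinase SPAK that phosphorylates them, was at 150.3 and 98.4 CPM.

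Among the 6 partners of the KCC2 protein, Pacsin1 was 5.69 times higher in adult neurons (5.38 to 6.03) and Neto2 5.59 times higher in E14 neurons (5.13 to 6.11). The adult Neto2 mean of 43.7 CPM joined 6.12 CPM in dentate granule-like nuclei with 48.9 to 150.1 CPM in the other adult neuron classes, against 245 CPM in E14 neurons. Pacsin1 was alike over those classes, at 260.4 to 312 CPM. Of the transcription factors tied to Slc12a5, Egr4 had 105 UMIs in adult and 1 UMI in E14 neurons, a ratio of 287 with an interval of 50.4 to 11440, and 70 of the adult UMIs were in CA1 pyramidal-like nuclei. Rest, a repressor of neuronal genes, was at 2.88 and 7.34 CPM, 2.55 times higher in the embryo (1.79 to 3.73).

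Of 9 genes listed under bicarbonate transporters and carbonic anhydrases 4 were higher in adult neurons. The bicarbonate cotransporter Slc4a4 was 54.0 times higher (47.7 to 61.3), and the carbonic anhydrases Car2 and Car7 were 21.05 (15.5 to 29.2) and 18.6 times higher (13.2 to 26.7). Most of the adult neuronal UMIs of each gene came from a single class. Of 5213 adult Slc4a4 UMIs 4656 were in dentate granule-like nuclei, at 813 CPM. CA1, CA3, cortical excitatory and inhibitory-like nuclei were at 17.8, 2.78, 29.2 and 77.4 CPM, against 7.73 CPM in E14 neurons. CA1 pyramidal-like nuclei held 216 of 362 Car2 and 144 of 265 Car7 UMIs. In dentate granule, CA3, cortical and inhibitory-like nuclei Car2 was still at 12.6 to 29.9 CPM, against 1.38 CPM in E14 neurons. Car7 was at 3.52 to 29.2 CPM in those classes, against 1.14 CPM. Slc4a4 and Car2 are also known from glia, and the part of glial RNA in these neuronal sums was not tested. Of 6 subunits of the sodium-potassium ATPase, which maintains the gradients that both cotransporters use, 4 were higher, led by Atp1b1 at 8.78 times (8.40 to 9.18). Of 9 genes listed under chloride channels 1 was higher, Ttyh1 at 4.14 times (3.75 to 4.58). Another 3 were lower, led by Lrrc8a at 2.57 times higher in the embryo (2.15 to 3.10).

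**Figure D5:**
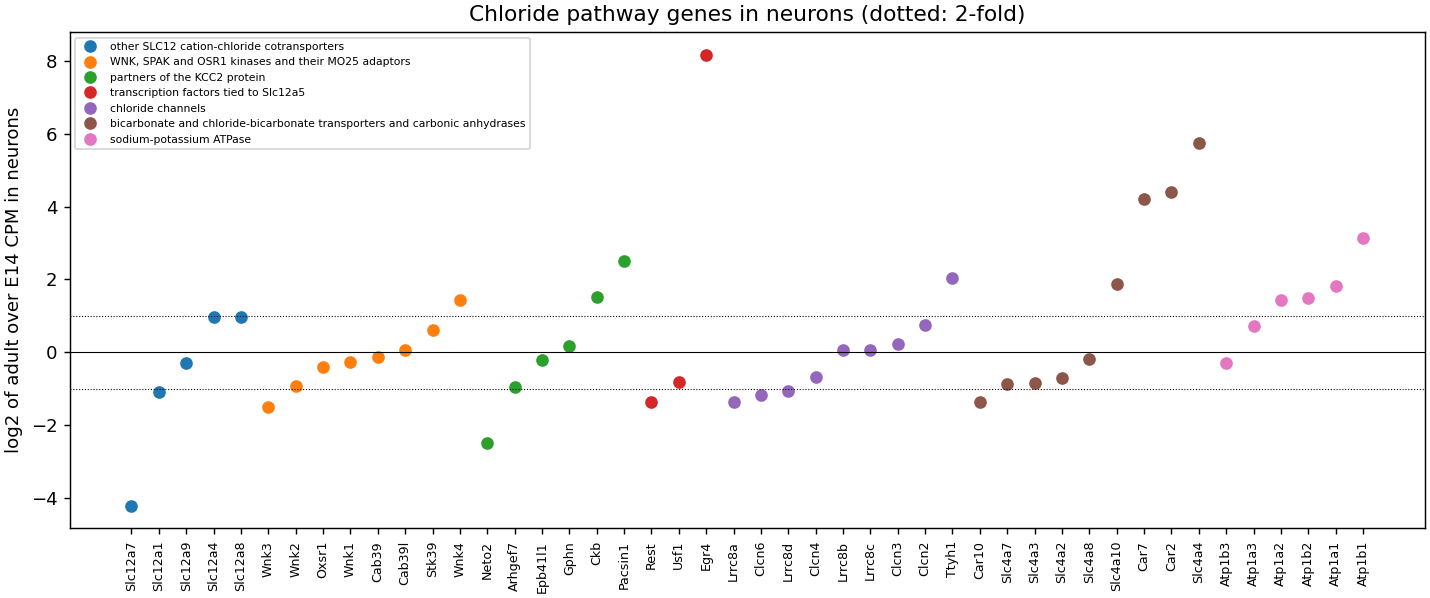
Log2 of adult over E14 CPM in neurons for 46 chloride pathway genes with enough UMIs, coloured by group, with dotted lines at 2-fold in each direction. The 13 higher genes lie at or above the upper line and the 9 lower ones at or below the other, with Egr4 highest on 1 E14 UMI.

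Across 20 classes of both libraries with at least 25 nuclei, the Pearson correlation of log2(CPM + 10) between Slc12a2 and Slc12a5 was -0.67. Points of 1 library share its depth and preparation. Of 9402 genes with at least 200 UMIs in each library, Ttyh2, a tweety-family membrane protein, was most like Slc12a2 (r = 0.95), followed by Sass6, Tjap1, Cers2 and Cdc37l1 (0.85 to 0.83). Ttyh2 was at 347 CPM in adult oligodendrocyte-like and 218 CPM in E14 endothelial-like nuclei, the 2 classes in which Slc12a2 was highest at each age. Most like Slc12a5 were Kcnip4, which encodes a potassium channel partner (r = 0.93), Map9, Pacsin1, Dmtn and the synaptic vesicle gene Syp (0.93 to 0.92).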

How the data were processed

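RNA of nuclei from 1 adult hippocampus and 1 E14 brain section was measured with 10x Genomics 3′ chemistry. The deposited values are raw UMI counts by gene and nucleus barcode. The authors made them with Cell Ranger, version 6.1.2 (adult) and 7.0.1 (E14) per the file headers, against mm10, counting introns. The methods name CellBender background correction for the embryo, and the E14 header is that of Cell Ranger, so these counts were taken as uncorrected. 

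A minimum of 500 UMIs and a mitochondrial share below 5% left 1609 of 1661 and 9036 of 9037 nuclei. Clustering used Seurat 5.3.0 (R 4.3.3) with 2000 variable genes, 30 components and resolution 0.8. A class name needed 4 markers of a list detected in at least 10% of nuclei at 2-fold over the rest, and no other list with more markers among the 10 leading genes. Shallow clusters, with a median under the library median divided by 3, stayed unnamed where mitochondrial genes led them. Unnamed clusters with 4 of 8 general neuron markers at 2-fold over non-neuronal classes counted as neurons. This scoring was set after clusters were seen. Scrublet (scanpy 1.11.5) marked 7 adult and 0 E14 nuclei automatically, which was judged a failure, and doublets were kept in the main values.

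CPM intervals are exact Poisson, shares Clopper-Pearson, and ratios conditional binomial, computed in scipy 1.17.1. In folds a count of 0 was set to 3. Pooled folds were tested on simulated data with known changes. Named genes are both members, the pathway genes with the largest changes in each group and the regulators, the 5 genes most like each member, and markers. The members and lists were chosen with earlier results of these data known. Alternatives were depth, mitochondrial and doublet filters, clustering settings, classes from each nucleus's own marker UMIs, equal weights and Malat1-poor clusters. Spatial positions were not used here. 1 gene of the pathway list is in the counts and is not reported singly here.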

Additional observations from a re-analysis of the deposited data

Results flagged for a closer look

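Nuclei in unnamed clusters entered no comparison, yet both genes were detected in them beyond the 3 counts that a count of 0 allows. In the 284 adult nuclei, at a median of 914.5 UMIs, Slc12a5 was at 330.3 CPM (interval 279 to 389) and Slc12a2 at 48.2 CPM (29.8 to 73.6). This pooled Slc12a5 level was above that of every named adult class. It joined a cluster of 204 nuclei at 387 CPM (320 to 464) with a cluster of 80 nuclei at 205 CPM (136 to 297). Both clusters were led in part by mitochondrial genes and were poor in Malat1, at 0.61% and 0.44% of UMIs. In the 1464 E14 nuclei, Slc12a5 was at 77.3 CPM (72.0 to 82.8) and Slc12a2 at 78.6 CPM (73.3 to 84.2). The E14 nuclei joined a shallow cluster of 966 nuclei led by haemoglobin genes with a deep cluster of 498 nuclei. The shallow cluster held Slc12a5 at 184 CPM and Slc12a2 at 76.9 CPM. The deep cluster shared leading genes with a radial glia-like cluster and held Slc12a5 at 66.9 CPM and Slc12a2 at 78.8 CPM.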

How the results depend on the processing

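No paired analysis was possible because each group held 1 library, and for the same reason no library could be left out. The adult over E14 ratio over all neurons ran from 2.07 to 2.24 for Slc12a5 and from 0.575 to 0.726 for Slc12a2. Ratios of single classes were not recomputed. At a minimum of 1000 UMIs astrocyte-like nuclei held Slc12a5 at 62.4 and Slc12a2 at 65.7 CPM, beside 68.8 and 65.5 CPM in the main values. In 80 of 120 values recomputed for the main comparisons the alternative lay within the interval of the reported value, or within 1.5 times the reported count, and 40 did not. With at least 2000 UMIs the Slc12a5 to Slc12a2 ratio was 0.221 in adult glia and 0.201 in E14 radial glia-like nuclei. With at most 1% mitochondrial UMIs the adult glial ratio was 0.0842. With likely doublets removed the E14 neuron ratio was 1.74 and the adult over E14 ratio of Slc12a2 in neurons 0.599. At resolution 0.4 the cluster rich in Slc12a2 lost its name, and radial glia-like Slc12a2 was 88.7 CPM with a ratio of 0.209. With 4000 variable genes E14 neurons held Slc12a5 at 90.5 CPM and a ratio of 1.58, adult glia a ratio of 0.0780, and the adult over E14 ratios were 0.609 for Slc12a2 and 2.24 for Slc12a5. With classes from each nucleus's own markers, E14 neuron Slc12a5 was 93.3 CPM, radial glia Slc12a2 158 CPM and oligodendrocyte Slc12a2 697 CPM, the ratios were 1.63 in E14 neurons, 0.202 in adult glia and 0.203 in radial glia, and the adult over E14 ratios were 0.575 and 2.22. With nuclei weighted equally, adult neuron Slc12a5 was 218 CPM, radial glia Slc12a2 204 CPM, the adult glial ratio 0.0668, the radial glial ratio 0.119 and the adult over E14 ratio of Slc12a5 2.24. Shares of nuclei rose with depth by construction. Thinned to 2000 UMIs and unthinned, Slc12a5 was found in 33.9% and 85.2% of adult and 17.2% and 34.9% of E14 neurons, and Slc12a2 in 80.4% and 84.8% of oligodendrocyte-like and 26.0% and 41.97% of radial glia-like nuclei. At a fold of 4, 7 pathway genes were higher and 2 lower, beside 8.08% and 10.5% of all genes. By Spearman correlation 2 of the 5 genes most like Slc12a2 and 2 of those most like Slc12a5 were kept, and 3 of the latter with a pseudocount of 1. Thinned before scoring, the maturation ratios were 1.11 for Slc12a2, above 1 where the reported value lay below it with an interval that includes 1, and 1.04 for Slc12a5. Apart from the named constructions, the cause was not tested. Depth limits the small adult classes, where Slc12a5 rests on 6 UMIs in each of endothelial, microglia and oligodendrocyte precursor-like nuclei.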
